A study of Mus musculus with 2 samples.

Results

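Rax tanycytes are described here in 2 droplet single-cell RNA libraries of mouse arcuate nucleus and median eminence, the part of the hypothalamus at the floor of the third ventricle. Cells were chosen by measured counts: at least 1 UMI of Rax, a summed level of Snap25, Stmn2 and Syt1 under 5 UMIs per 10000 UMIs of the cell (CP10K), a summed level of Agt, Slc7a10, Ntsr2, Pla2g7 and Aqp4 under 5 CP10K, and no cell with UMIs of both Scn7a and Cldn10. A UMI (unique molecular identifier) stands for 1 captured transcript. This left 294 of 7418 cells, 161 of 3479 in the control library and 133 of 3939 in the dHet library. Both libraries came from CD-1 mice at postnatal day 10 that carried an Ins2-Cre transgene and 1 copy of a Cre-dependent tdTomato reporter (tdTomato+/-), and viable tdTomato-positive cells were sorted before capture. The control library is Ins2-Cre;tdTomato+/-, and the dHet library is Ins2-Cre;tdTomato+/-;Irx3/5+/-, from mice heterozygous for both Irx3 and Irx5. Each library is 1 pool of 5 animals, so there is no replicate of either genotype, no test between genotypes is possible, and all intervals below cover counting error only. Only cells in which the Ins2 promoter had been active, or that descend from such cells, were sorted, so the cells stand for reporter-positive tanycytes rather than for all tanycytes.

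Tanycytes are elongated glial cells that line the floor and lower walls of the third ventricle and send a long process into the tissue or to the portal capillaries of the median eminence. They seal the ventricle from the median eminence with tight junctions, carry hormones such as leptin and thyroid hormone across that boundary, sense glucose, and serve as neural progenitors after birth. Rax, a homeodomain transcription factor of the eye field and ventral hypothalamus, is needed for their formation and remains active in them, and Irx3 and Irx5 are homeodomain factors of the Iroquois family.

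At the first step 359 control and 282 dHet cells held a Rax UMI. Of these, 269 and 194 lay under the neuron limit, 221 and 165 of them also under the astrocyte limit, and the last step removed cells with both Scn7a and Cldn10. Cldn10 alone was common, with a UMI in 113 control and 103 dHet Rax tanycytes, whereas Scn7a was found in 1 cell of each library. Just inside the neuron limit, from 4 to 5 CP10K, there were 3 cells in each library, and just outside it, from 5 to 6 CP10K, 7 control and 4 dHet cells that met every other condition. The same bands at the astrocyte limit held 6 control and 8 dHet cells inside, and 5 and 4 outside. Exactly 1 Rax UMI carried 47 control and 41 dHet cells into the set, while 294 control and 257 dHet cells met the other conditions with no Rax UMI. Control Rax tanycytes had a median of 9426 UMIs (lowest 714, highest 37431) and 3611 genes, and dHet Rax tanycytes 8760 UMIs (547 to 33810) and 3401 genes. The median mitochondrial share was 4.97% and 6.29%. No barcode sequence was shared by Rax tanycytes of the 2 libraries, and 4 were shared over all cells. Among the 3479 and 3939 cells, the median depth was 16508 and 17175 UMIs, since neuron gate cells (a summed Snap25, Stmn2 and Syt1 level of 5 CP10K or more and no Rax UMI) were deeper.

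The label was checked against 6 tanycyte markers. Because the same counts chose the cells, their levels are a description. Levels are UMIs of a gene summed over the cells of a class, per 1000000 UMIs of that class (CPM). Rax itself stood at 348 CPM in the control and 287 CPM in the dHet library. Crym, which binds thyroid hormone in the cytosol, stood at 1321 and 1371 CPM, against 10.8 and 11.03 CPM in neuron gate cells and 29.6 and 34.5 CPM in astrocyte gate cells (a summed astrocyte gene level of 5 CP10K or more and no Rax UMI). S100a6, a calcium-binding protein, stood at 2686 and 2516 CPM, against 271 and 215 CPM in astrocyte gate cells. In ciliated gate cells, defined below by cilium genes, S100a6 stood at 1843 and 1908 CPM, so it sets Rax tanycytes little apart from them. Prss56, a secreted serine protease, stood at 199.95 and 192 CPM and was under 10 CPM in astrocyte gate cells of both libraries. Frzb, a secreted Wnt antagonist, stood at 230.1 and 199.5 CPM, with 0.767 and 1.19 CPM in neuron gate cells. Col23a1, a transmembrane collagen, stood at 768 and 821 CPM. The level of Rax is set by the rule, so the check rests on the other 5 markers. All 5 were present in both libraries, at least 16.6-fold above all other cells (the smaller of the library ratios, 5 CPM added), with the largest ratio, 46.1, for Crym. Most of those other cells were neuron gate cells.

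**Figure D1:**
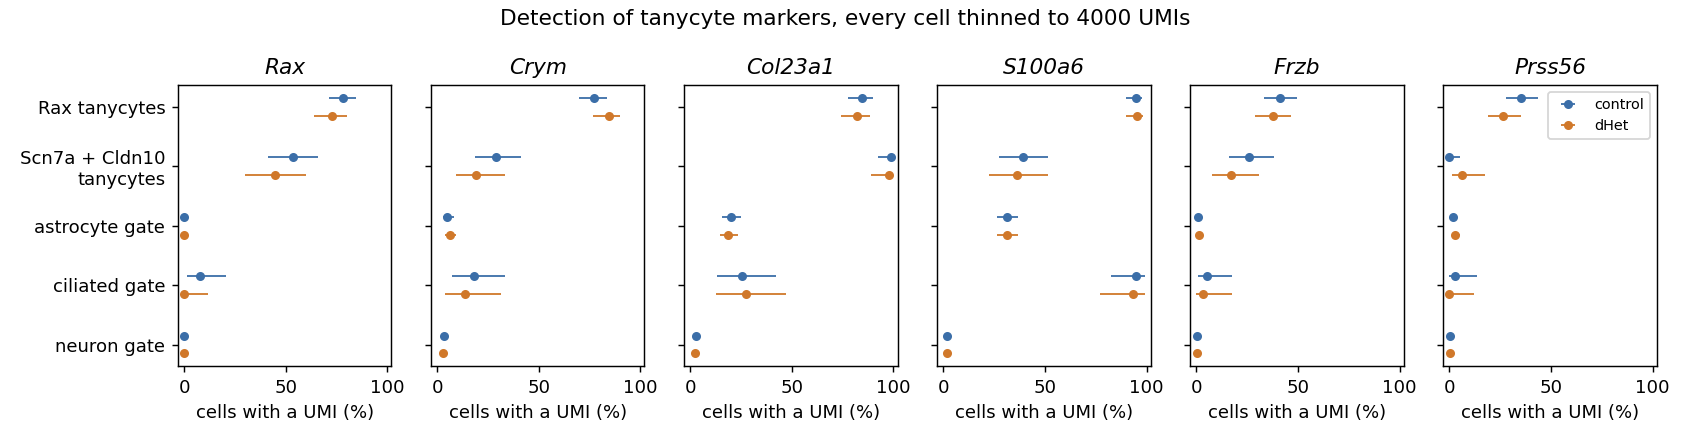
Percent of cells with at least 1 UMI of each marker (x axis) in 5 cell classes (y axis) after every cell was thinned to 4000 UMIs, with points for the control and dHet libraries and exact 95% binomial intervals as bars. S100a6 reached 94.8% and 95.3% of Rax tanycytes and Prss56 35.3% and 26.6%, so the markers differ in how many of the cells hold them.

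Detection was compared at equal depth by drawing 4000 UMIs from each cell, which left 153 control and 128 dHet Rax tanycytes. S100a6 was then found in 94.8% (exact Clopper-Pearson 95% interval 90.0 to 97.7) of control and 95.3% (90.1 to 98.3) of dHet cells, and in 2.04% and 1.70% of neuron gate cells. Col23a1 was found in 84.3% and 82.0%, Crym in 77.1% and 84.4%, and Rax in 78.4% and 72.7% of Rax tanycytes. Frzb (41.2% and 37.5%) and Prss56 (35.3% and 26.6%) were held by fewer of the cells. Without thinning, Frzb was found in 55.9% and 51.1% and Prss56 in 42.2% and 35.3%. In neuron gate cells the thinned share was 0.278% and 0.426% for Frzb and 0.278% and 0.106% for Prss56. The plot of marker detection shows S100a6 first and Frzb and Prss56 last in both libraries, while the order of Crym, Col23a1 and Rax between them differed.

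Cells with UMIs of both Scn7a and Cldn10 under the same neuron and astrocyte limits, whether or not they held a Rax UMI, form the nearest other group of tanycytes here (75 control and 52 dHet cells). The groups differed in genes that the rule did not name, although the same cells' counts chose them. Prss56 stood at 1.09 CPM in control and 29.2 CPM in dHet cells of that group, Crym at 142 and 281 CPM, and S100a6 at 248 and 316 CPM. Col23a1 went the other way, with 1480 CPM and 1686 CPM there, and Dio2, the enzyme that converts thyroxine to its active form, was found in 19.6% and 19.5% of Rax tanycytes but in 52.2% and 44.7% of Scn7a and Cldn10 tanycytes at equal depth. Rspo3, a secreted Wnt agonist, was at least 20.03-fold higher in Rax tanycytes in both libraries. It had 1 UMI in each library of the other group, so the added CPM largely sets that size. Fabp5, a fatty acid carrier, was at least 11.4-fold higher in Rax tanycytes, and Ramp1, a partner of calcitonin-type receptors, at least 10.4-fold higher, each with 5 CPM added. Neither was highest in Rax tanycytes among all classes. Fabp5 stood at 370 and 474 CPM in them and at 1958 and 2292 CPM in astrocyte gate cells. Ramp1 stood at 522 and 392 CPM in them and at 1018 and 990 CPM in ciliated gate cells. Cells of 1 library are not replicates, so these ratios carry no test.

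Motile cilium genes were among the leading genes of the Rax tanycytes. Of the 20 genes with the largest ratio over all other cells, Ccdc114, a docking factor of outer dynein arms, stood at 193 and 250.3 CPM, Cfap126 at 410.4 and 429 CPM, and Dynlrb2, a dynein light chain, at 277 and 270 CPM. At equal depth Cfap126 was found in 71.9% and 75.8% of Rax tanycytes, against 14.5% and 19.1% of Scn7a and Cldn10 tanycytes and 5.46% and 4.68% of neuron gate cells. Foxj1, the master regulator of motile cilia, was found in 28.8% and 30.5%, and Pifo in 54.9% and 46.9%. Of 8 ependymal markers, 6 (Foxj1, Dynlrb2, Rsph1, Cfap126, Tekt1 and Enkur) had enough counts to compare in Rax tanycytes, and the 8 summed to 1367 and 1347 CPM. Their median per cell was 12.6 and 12.1 CP10K, against 49.4 and 78.5 CP10K in the ciliated gate (summed Tmem212, Ccdc153 and Foxj1 of 5 CP10K or more, under the neuron limit and outside the Rax tanycytes). The other two were rare, with Ccdc153 in 0.654% and 2.34% of Rax tanycytes and Tmem212 in 2.61% and 1.56%. In the ciliated gate Tmem212 was found in 94.9% and 93.1%, a value that the gate itself sets. Only 4 control and 2 dHet Rax tanycytes reached that limit. The shared cilium genes were higher in that gate, with Cfap126 at 688 and 788 CPM, Dynlrb2 at 1136 and 1399 CPM and Ccdc114 at 269 and 318 CPM. Of 15 cilium genes, 12 were measured well enough to compare, 6 were higher and 6 lower in the dHet library, none by 1.5-fold, and their median log2 ratio was -0.01. Drc1, a gene of the cilium's nexin link that was outside that list, was 1.66-fold higher in the dHet library.

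Markers of several other cell types were low. Defining genes of microglia (Cx3cr1, P2ry12, C1qa), of blood vessels (Cdh5, Ly6c1) and of mature oligodendrocytes (Ermn, Opalin) had 0 UMIs in the Rax tanycytes of both libraries. The whole lists summed to 52.3 and 46.4 CPM for microglia. The list for endothelial and mural cells summed to 164 and 163 CPM, mostly from Flt1, a receptor for vascular growth factors (82.4 and 94.3 CPM), and Myl9, a myosin light chain (59.7 and 47.9 CPM). The oligodendrocyte list summed to 164 and 169.8 CPM, mostly from Cnp, a myelin-associated enzyme (149.5 and 149 CPM). The pars tuberalis list was not low in sum, at 4667 CPM in control and 1003 CPM in dHet Rax tanycytes. Its median per cell was 0 CP10K in both libraries, and the highest cells reached 1989 and 961 CP10K. The median summed level of 12 astrocyte markers was 4.32 and 3.96 CP10K, against 120 and 115 CP10K in astrocyte gate cells. The summed level of 16 neuron markers was higher in the dHet library, with a median of 12.2 CP10K (lowest 0, highest 90.7) in control and 19.3 CP10K (0 to 96.5) in dHet Rax tanycytes. Snap25, Stmn2 and Syt1 are in that list and were held low by the rule. Among the 7 neuron markers with enough counts, all 7 were higher in the dHet library and 5 of them by at least 1.5-fold (2.44% of all genes compared were), with a median log2 ratio of 0.78. The same list had a median of 0.63 in Scn7a and Cldn10 tanycytes (2 genes), 0.71 in astrocyte gate cells (7 genes), -0.18 in ciliated gate cells (3 genes) and -0.03 in neuron gate cells (7 genes). Neuron gate cells made up 68.3% of the control and 75.3% of the dHet library. The part of these neuron transcripts in any difference between the libraries was not tested.

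A few cells stood apart within the set. At least 100 UMIs of Cga, the glycoprotein hormone alpha chain made by the pituitary and pars tuberalis, were found in 4 control cells and 1 dHet cell, and the same number of cells held at least 100 UMIs of Scg2, a granin of secretory vesicles. At least 100 UMIs of Npy, a neuropeptide that stimulates feeding, were found in 1 dHet cell. Results were therefore also computed without the 4 control and 2 dHet cells with at least 100 UMIs of Cga or Npy.

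Rax tanycytes made up 4.63% (exact 95% interval 3.95 to 5.38) of control and 3.38% (2.83 to 3.99) of dHet cells. The share in the dHet library was 0.730 of that in the control library (exact conditional binomial 95% interval 0.575 to 0.924). Among cells under the neuron limit only, the shares were 15.9% (13.7 to 18.3) and 15.0% (12.7 to 17.5), with a ratio of 0.944 (0.744 to 1.19). Neuron gate cells made up 68.3% of the control and 75.3% of the dHet library, and their part in the lower share was not tested. Scn7a and Cldn10 tanycytes made up 2.16% and 1.32%, a ratio of 0.612 (0.421 to 0.884), and Rax tanycytes were 68.2% and 71.9% of both tanycyte groups together. When the rule was applied to cells thinned to 4000 UMIs, the shares were 3.50% and 2.18% and the ratio 0.624 (0.461 to 0.841). Dissection, sorting and pool differ with the genotype, and their part in the share cannot be told apart from it.

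Irx3 and Irx5 were at the edge of detection in Rax tanycytes, so the lowered gene dose could not be followed in them. Irx3 had 0 UMIs in both libraries, which allows at most 1.85 CPM in the control and 2.18 CPM in the dHet library if a count of 0 stands for up to 3 UMIs. Irx5 had 5 UMIs in the control and 6 UMIs in the dHet library, or 3.08 and 4.35 CPM. No direction can be read from counts of this size, and the 3' tags counted here may lie outside the deleted parts. Astrocyte gate cells held more, with Irx3 at 24.5 and 7.28 CPM and Irx5 at 42.9 and 25.7 CPM. Mki67, a proliferation marker, was found in 1 control and 0 dHet Rax tanycytes, and 0 of 128 dHet cells thinned to 4000 UMIs held a UMI of it (exact 95% interval 0 to 2.84%), which limits cells with a UMI and not cells that express the gene. Lepr, the leptin receptor, had a UMI in 0 control cells and in 0.781% (0.0198 to 4.28) of dHet cells at equal depth.

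Between the libraries, most of the programme of the cells was alike in level. The comparison took genes with 50 or more UMIs in all Rax tanycytes that were found in at least 10% of them in either library, which 7786 of 20210 genes were. The median log2 ratio of dHet over control (5 CPM added) was -0.01, and 3845 genes were higher and 3941 lower. At least 1.5-fold higher in the dHet library were 190 genes (2.44%), and 184 genes (2.36%) were at least 1.5-fold lower. These counts are of genes past a size and come from no test. All 6 tanycyte markers lay within 1.5-fold, 2 of them higher and 4 lower. Every cell had to hold a Rax UMI, so nothing is read from Rax in that count. Prss56 had a ratio of 0.962 (exact conditional binomial 95% interval 0.814 to 1.13) and Crym of 1.04 (0.975 to 1.10).

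**Figure D2:**
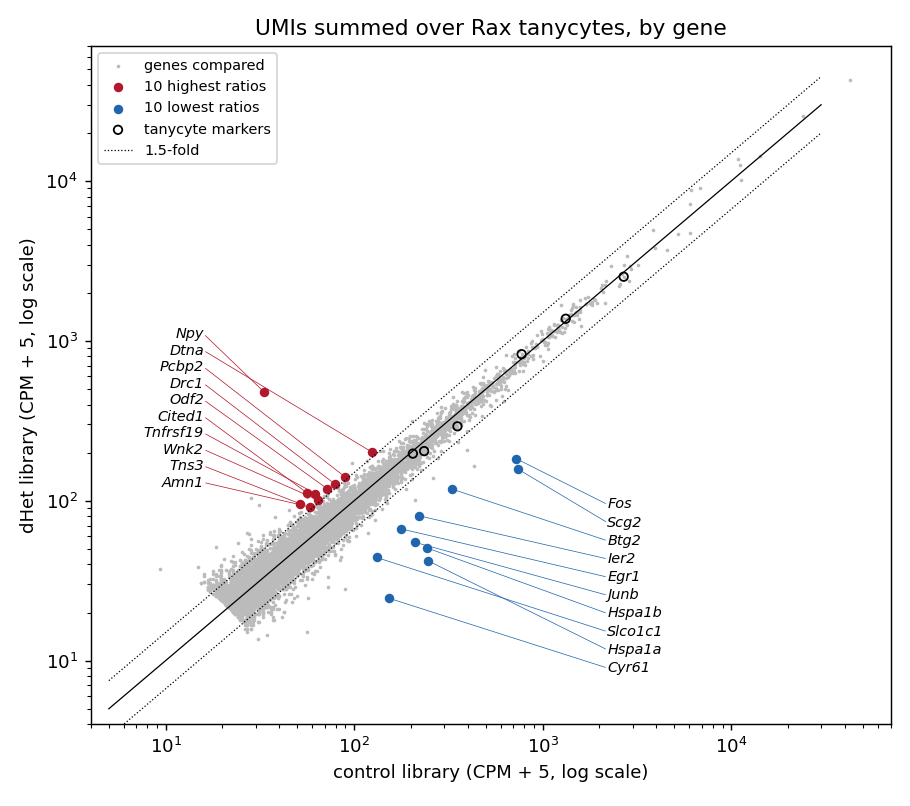
Level of each of the 7786 genes compared in control (x axis) and dHet (y axis) Rax tanycytes, in CPM with 5 added, both axes on a log scale; dotted lines mark 1.5-fold, filled points the 10 highest and 10 lowest ratios, open circles the 6 tanycyte markers. The markers lie near the diagonal, and Fos, Cyr61, Hspa1a and Slco1c1 lie far below it.

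Immediate early genes were lower in dHet Rax tanycytes. These genes are switched on within minutes of a stimulus and include AP-1 subunits, which are transcription factors of the Fos and Jun families. Of 37 listed, 21 passed the count minimum, all 21 had a log2 ratio below 0 and 11 were at least 1.5-fold lower (background 2.36%), with a median of -0.90 against -0.01 over all genes compared. The list was drawn up with earlier results of these data known, so the count is no independent evidence of its direction. Fos, an AP-1 subunit, had 1168 UMIs (719 CPM) in control and 246 UMIs (178 CPM) in dHet cells, a ratio of 0.248 (0.216 to 0.285). Cyr61, a secreted matrix protein, had 240 and 27 UMIs (148 and 19.6 CPM), a ratio of 0.133 (0.0856 to 0.198). Junb, another AP-1 subunit, stood at 204 and 50.1 CPM, and Jun, its partner in the complex, at 426 and 161.06 CPM. Btg2, an antiproliferative factor, stood at 327 and 113 CPM, Ier2, a nuclear early gene product, at 217 and 75.5 CPM, and Egr1, a zinc finger transcription factor, at 173 and 61.7 CPM. The difference was in the share of cells as well as in the sum. At equal depth Fos was found in 52.9% (44.7 to 61.1) of control and 24.2% (17.1 to 32.6) of dHet Rax tanycytes, and in 28.7% and 15.6% of neuron gate cells. Cyr61 was found in 19.6% (13.6 to 26.8) and 7.81% (3.81 to 13.9), and in 0.185% and 0.248% of neuron gate cells. Klf4, Rhob, Btg1, Jund and Ier5 were close to equal, with log2 ratios between -0.14 and -0.00.

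**Figure D3:**
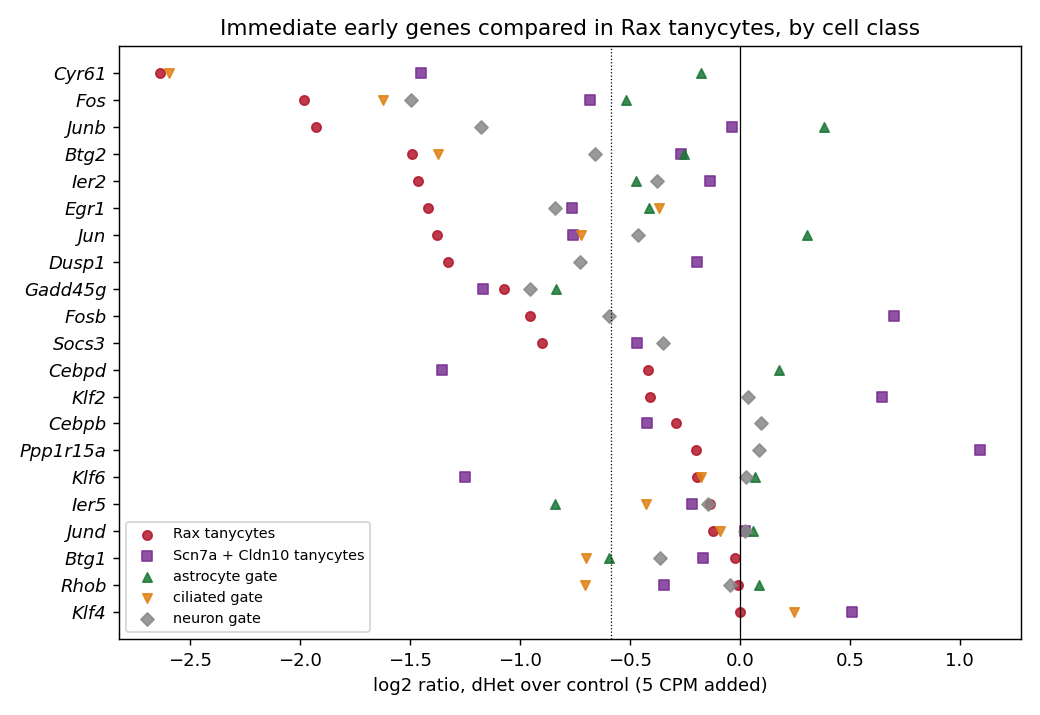
Log2 ratio of dHet over control (x axis, 5 CPM added) for the 21 immediate early genes compared in Rax tanycytes (y axis), with a point for each cell class in which the gene had enough counts; the dotted line marks 1.5-fold lower. In Rax tanycytes 11 genes lie left of that line, led by Cyr61 and Fos.

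The sum of the 37 genes per cell showed how the difference was spread. In control Rax tanycytes it ran from 3.86 to 240 CP10K with a median of 24.9 and quartiles of 18.1 and 48.2, and in dHet cells from 1.96 to 317 CP10K with a median of 19.1 and quartiles of 15.7 and 24.98. The dHet range enclosed the control range, and the highest single cell was in the dHet library. At or over 50 CP10K were 39 control cells (24.2%) and 8 dHet cells (6.02%). The difference was thus larger in the upper part of the distribution than in its middle. The early genes also differed between the libraries in other classes. In Scn7a and Cldn10 tanycytes 16 of the same 21 genes were lower and 5 higher. Of the 21, 7 were at least 1.5-fold lower (background 5.91%), with a median of -0.27. Their median sum of the 37 genes per cell was 148 CP10K in control and 72.3 CP10K in dHet cells. Both the level and the difference in that median were larger than in Rax tanycytes. The median sum was 8.13 and 8.18 CP10K in astrocyte gate, 22.5 and 14.0 in ciliated gate and 13.9 and 12.2 in neuron gate cells. In astrocyte gate cells 14 had enough counts, 8 lower and 6 higher, with 3 at least 1.5-fold lower (background 2.28%) and a median of -0.22. In neuron gate cells 13 of 18 were lower and 5 higher, with 7 at least 1.5-fold lower (background 0.219%) and a median of -0.37. In ciliated gate cells (50 control and 35 dHet cells) 10 of 11 genes were lower, 6 of them at least 1.5-fold (background 6.81%), with a median of -0.70. These medians cover different sets of genes, so they set no order between the classes. Whether the difference varies between classes was not tested. Dissociation and sorting of each pool are confounded with genotype, and with 1 library per genotype these cannot be told apart. Few cells set much of the size: without the cells with at least 100 UMIs of Cga or Npy the median was -0.57 and 19 of 21 genes were lower. When 5 dHet and 2 control barcodes that met the rule but were left out of the merged table were added, the median was -0.25 and Egr1 was higher in the dHet library (log2 ratio 0.24). In that setting the log2 ratio of Fos was -0.57 (1178 and 783 UMIs) against -1.98, the log2 ratio of Junb was -0.48 against -1.93, the log2 ratio of Btg2 was -0.65 against -1.49 and the log2 ratio of Cyr61 was -1.54 against -2.63. Over 15 alternative settings Fos ranged from -2.83 to -0.57 and Junb from -2.14 to -0.48. Of these barcodes, 1 dHet barcode held 99496 UMIs, 516 of Fos and 4154 of Cga.

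Heat shock chaperone genes were also lower, with fewer of them past 1.5-fold. Their sum per cell had a median of 77.4 CP10K (quartiles 63.1 and 87.4) in control and 62.4 CP10K (54.5 and 72.3) in dHet Rax tanycytes. At or over 50 CP10K were 96.9% of control and 80.5% of dHet cells. Of 19 listed, 17 were compared, 14 were lower and 3 higher in the dHet library, and 3 were at least 1.5-fold lower (background 2.36%), with a median log2 ratio of -0.19. Hspa1a, the stress-inducible chaperone of the HSP70 family, had 395 UMIs (243 CPM) in the control and 51 UMIs (37.0 CPM) in the dHet library, a ratio of 0.152 (0.111 to 0.204). Its near-identical copy Hspa1b stood at 239 and 45.7 CPM, and reads from both genes can be split between them, so each value is uncertain alone. Hspb1, a small chaperone, stood at 74.4 and 41.4 CPM. Hspa1a was also lower in the dHet library in the other classes, with a ratio of 0.225 in Scn7a and Cldn10 tanycytes, 0.157 in astrocyte gate cells (50 and 8 UMIs), 0.298 in ciliated gate cells (50 and 11 UMIs) and 0.504 in neuron gate cells. The median log2 ratio of the list was -0.30 in Scn7a and Cldn10 tanycytes, -0.36 in ciliated gate cells, -0.03 in astrocyte gate cells and -0.04 in neuron gate cells. The constitutive chaperones were closer in Rax tanycytes, with Hspa8 at 1576 and 1515 CPM and Hspa5 at 591 and 570 CPM.

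The upstream sequences of 4 of these lower genes are shown, picked because each holds a motif of a stimulus-responsive factor. They are the 250 bases before the start site in RefSeq (GRCm38.p6), 5' to 3' on the gene's strand, with capitals marking matches to TGACGT, the core of the cyclic AMP response element bound by CREB and ATF factors, or GAANNTTC, a unit pair of the heat shock element bound by HSF1, on either strand.
Fos, chr12:85473640-85473889, plus strand: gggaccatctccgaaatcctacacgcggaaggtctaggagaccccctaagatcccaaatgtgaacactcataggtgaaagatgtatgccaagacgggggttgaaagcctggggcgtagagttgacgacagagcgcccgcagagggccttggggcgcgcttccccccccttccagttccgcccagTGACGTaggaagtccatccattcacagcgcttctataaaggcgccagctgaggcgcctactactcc
Cyr61 (listed in RefSeq as Ccn1), chr3:145649986-145650235, minus strand: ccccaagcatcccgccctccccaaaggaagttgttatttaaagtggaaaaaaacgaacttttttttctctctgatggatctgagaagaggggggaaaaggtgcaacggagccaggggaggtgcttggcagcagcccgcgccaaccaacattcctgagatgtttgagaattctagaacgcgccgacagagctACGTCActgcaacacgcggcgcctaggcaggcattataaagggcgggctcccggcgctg
Btg2, chr1:134079156-134079405, minus strand: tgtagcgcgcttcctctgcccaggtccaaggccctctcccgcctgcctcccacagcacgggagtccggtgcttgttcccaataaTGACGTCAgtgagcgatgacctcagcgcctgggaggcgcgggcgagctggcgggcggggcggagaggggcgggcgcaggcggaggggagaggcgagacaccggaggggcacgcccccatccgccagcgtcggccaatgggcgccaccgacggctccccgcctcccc
Hspa1a, chr17:34972157-34972406, minus strand: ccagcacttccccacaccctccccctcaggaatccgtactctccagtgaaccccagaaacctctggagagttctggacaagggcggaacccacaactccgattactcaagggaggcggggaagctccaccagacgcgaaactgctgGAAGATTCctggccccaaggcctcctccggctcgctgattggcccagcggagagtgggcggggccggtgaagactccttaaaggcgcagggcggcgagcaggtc
Fos and Cyr61 each hold 1 match to TGACGT, and Btg2 holds 1 on each strand at overlapping positions. Of the 21 immediate early genes compared, 18 had an entry, and 6 of these 18 windows (33.3%) held TGACGT, against 6.47% of 32851 windows of the same length. Of 13 heat shock genes with an entry, 5 (38.5%) held GAANNTTC, against 6.69% of all windows. The CArG box of serum response factor was in none of the 18 windows and in 1.47% of all. Only these 250 bases were searched, so sites farther upstream were not looked for. The windows of Hspa1a and Hspa1b differ at 3 of 250 positions, compared position by position. The window of Slco1c1, a gene described below that was also lower in the dHet library, held no match to these motifs and is not shown. The matches describe letters in the reference and no binding was measured. Whether the motifs have a part in the lower levels was not tested.

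Of the 10 genes with the lowest ratio among those with at least 200 UMIs, 6 were early genes and 2 were heat shock genes, and the others were Scg2 and Slco1c1. Slco1c1 encodes a transporter that carries thyroxine into brain cells and is a marker of the blood-brain boundary and of tanycytes. It lies at chr6:141524368-141570177 on the plus strand (GRCm38, GENCODE). It had 206 UMIs (127 CPM) in the control and 54 UMIs (39.2 CPM) in the dHet library, a ratio of 0.309 (0.225 to 0.419). The number per cell ran from 0 to 8 UMIs in control and from 0 to 5 UMIs in dHet Rax tanycytes, with a UMI in 93 of 161 and 32 of 133 cells. At equal depth it was found in 32.7% (25.3 to 40.7) and 16.4% (10.5 to 24.0), and in 0.0463% and 0.319% of neuron gate cells, a far lower share than in either set of Rax tanycytes. Scn7a and Cldn10 tanycytes had a ratio of 0.542 (104 and 56.5 CPM) and astrocyte gate cells of 0.994 (109 and 109 CPM). The log2 ratio of Slco1c1 was -1.58 and stayed below 0 in all 15 alternative settings, from -1.66 to -0.82, the last where the rule was applied to cells thinned to 4000 UMIs. Among these settings, removing doublets took out no Rax tanycyte, and lifting the count filter leaves a gene's own ratio as it was. Neither could have moved the value.

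**Figure D4:**
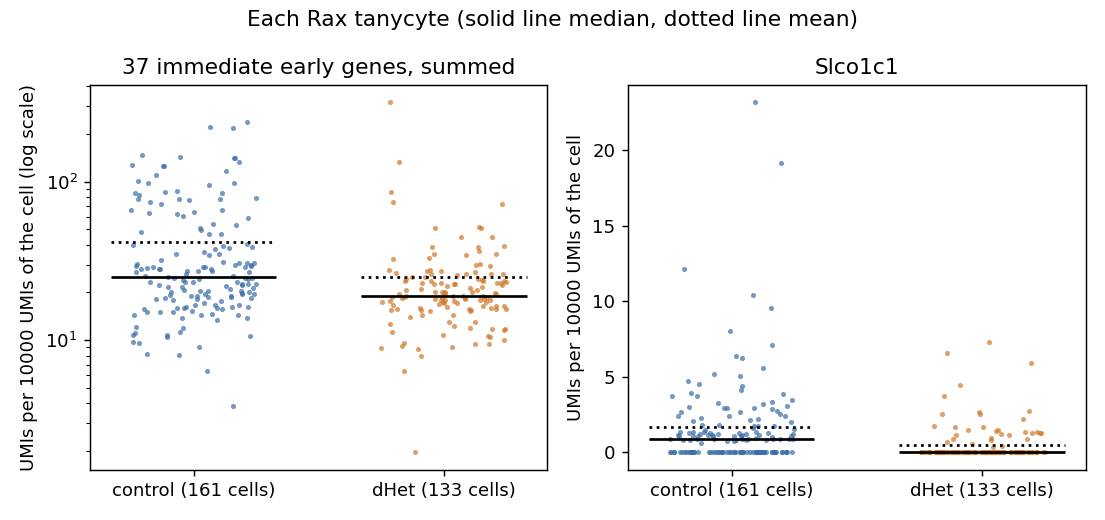
Each point is a Rax tanycyte of the control or dHet library (x axis), with the summed level of the 37 immediate early genes (left, log scale) and of Slco1c1 (right) in UMIs per 10000 UMIs of the cell (y axes); solid lines are medians and dotted lines means. Control cells reach higher on both measures for most of the distribution, with medians of 24.9 and 19.1 for the early genes and 0.875 and 0 for Slco1c1.

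Other thyroid hormone genes did not share that difference. Of 19 listed, 12 were compared, 5 were higher and 7 lower, and only Slco1c1 was past 1.5-fold, with a median of -0.01. Dio2 stood at 70.8 and 71.8 CPM, the receptors Thra at 440 and 437 CPM and Thrb at 29.5 and 35.5 CPM, and the thyrotropin receptor Tshr at 52.9 and 49.3 CPM.

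Among tanycyte genes beyond the 6 markers, 27 of 36 were compared, 15 were higher and 12 lower, and 3 were at least 1.5-fold lower (background 2.36%). These were Slco1c1, Penk, an opioid peptide precursor (59 and 19 UMIs), and Cd59a, a complement inhibitor (353 and 228 CPM). In the list of alpha tanycyte genes Gfap, the intermediate filament of astrocytes, had 83 and 14 UMIs, of which 62.7% in the control came from the 5 cells with the most. Igfbp5, which binds insulin-like growth factors and is listed with beta tanycyte genes, stood at 258 and 134 CPM, a ratio of 0.521 (0.435 to 0.621). Its log2 ratio was -0.07 without the 6 cells rich in Cga or Npy, and 0.26 with the left-out barcodes added, so its level rests on few cells. The transcription factors of the ventral forebrain midline were near equal: of 18 listed, 10 were compared, 5 higher and 5 lower, none past 1.5-fold, with Six3 at 677 and 644 CPM, Sox2 at 518 and 527 CPM and Lhx2 at 276 and 329 CPM.

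Signalling lists had medians between -0.26 and 0.18. In the Notch pathway, 2 genes were higher and 9 lower of 11 compared, with a median of -0.26. The receptor Notch1 stood at 100.3 and 78.4 CPM and the target Hes1 at 314 and 232 CPM, both within 1.5-fold, and only Hes5, another target, was past it, with 28 and 51 UMIs. In the Wnt pathway, 8 of 18 were higher and 10 lower with none past 1.5-fold, and the receptor Fzd5 stood at 287 and 249.6 CPM. In the Hedgehog pathway, 3 of 4 were higher, and the receptor Ptch1 stood at 69.5 and 81.3 CPM. Cholesterol synthesis genes were 8 higher and 11 lower of 19, none past 1.5-fold. Junction and barrier genes were 8 higher and 2 lower of 10, again none past 1.5-fold.

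The list of genes that respond to glucocorticoids and fasting had 3 of 11 members at least 1.5-fold higher in the dHet library (background 2.44%). The median of the list was 0.13. Zbtb16, a zinc finger transcription factor, was among the 3 members. It had 7 UMIs in control and 45 UMIs in dHet Rax tanycytes, a ratio of 7.58 (3.39 to 19.9). At equal depth it was found in 1.96% (0.406 to 5.62) and 10.9% (6.11 to 17.7). With 7 control UMIs, Zbtb16 could pass the minimum share of cells only through the dHet library, where it was high. Its place among the 3 is therefore no evidence of the direction of the list. Zbtb16 was also higher in Scn7a and Cldn10 tanycytes (log2 ratio 2.05), in astrocyte gate cells (1.89) and in neuron gate cells (0.66). The difference in Zbtb16 was thus also seen outside Rax tanycytes. The list as a whole went the other way in Scn7a and Cldn10 tanycytes, with 3 of 9 genes higher, 6 lower and a median of -0.23. The median was 0.31 in astrocyte gate cells (9 of 11 higher), 0.08 in ciliated gate cells (3 of 6) and 0.12 in neuron gate cells (6 of 10). Glul, which makes glutamine, stood at 199 and 309 CPM and Txnip, an inhibitor of glucose uptake, at 27.7 and 55.9 CPM.

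Among genes with at least 200 UMIs, the highest ratios were smaller in size than the lowest, apart from Npy. Npy had 46 and 653 UMIs, but 93.0% of the dHet UMIs came from 5 cells, and its log2 ratio was 3.85 with all cells and 0.47 without the cells rich in Cga or Npy. Cited1, a transcriptional co-activator, had 83 and 148 UMIs with 56.1% of the dHet UMIs in 5 cells, and its log2 ratio went from 1.00 to 0.35 without those cells. Tns3, a focal adhesion protein, had 76 and 125 UMIs (46.8 and 90.7 CPM), a ratio of 1.94 (1.45 to 2.61). Odf2, a protein of basal bodies and cilia, had 109 and 157 UMIs and was found in 19.6% and 35.9% of cells at equal depth. Dtna, a dystrophin-associated protein, had 195 and 270 UMIs, a ratio of 1.63 (1.35 to 1.97), and was found in 34.0% and 48.4%. Among the lowest ratios, Scg2 had 1192 and 211 UMIs with 99.2% of the control UMIs in 5 cells. Without the cells rich in Cga or Npy 13 and 21 UMIs were left, so Scg2 describes 4 control cells rather than the class.

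Within the Rax tanycytes, Frzb divided a repeatable set of genes. Cells were split on a Frzb UMI among 4000 UMIs, which gave 63 Frzb-positive and 90 Frzb-negative control cells and 48 and 80 dHet cells. A cell without a Frzb UMI may still express it, so this is a range and not a type. Of 2790 genes with at least 200 UMIs other than Frzb, 23 were at least 2-fold higher in Frzb-positive control cells, and 20 of these (87.0%) were at least 1.5-fold higher in Frzb-positive dHet cells, where 3.87% of all genes were. In the other direction 35 genes were at least 2-fold lower in Frzb-positive control cells, and 25 of these (71.4%) were at least 1.5-fold lower in the dHet library, where 4.66% of all genes were. The 35 and the 25 include Scg2 and Resp18, whose UMIs came mostly from 5 cells in each library. These counts were not repeated without the cells rich in Cga or Npy. The 2 libraries share no cells, and each was split on its own.

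**Figure D5:**
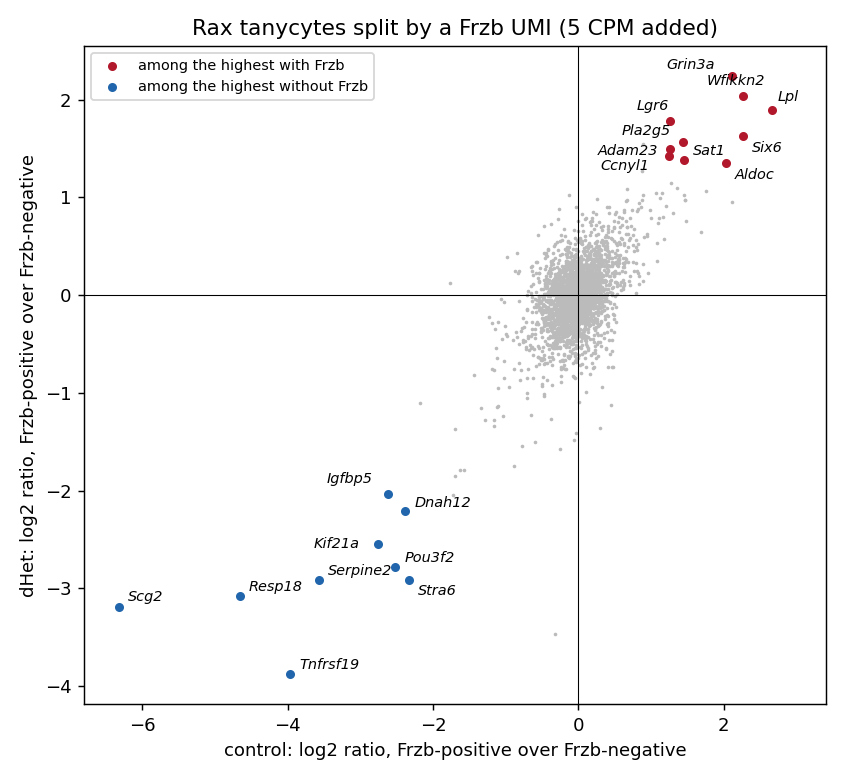
Log2 ratio of Frzb-positive over Frzb-negative Rax tanycytes (5 CPM added) in the control library (x axis) and in the dHet library (y axis) for 2790 genes, with filled points for genes among the highest with and without Frzb, some of which have fewer UMIs than that minimum. The named genes lie in the same 2 corners in both libraries, from Grin3a and Six6 at the upper right to Tnfrsf19 at the lower left.

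Frzb-positive cells were high in Six6, a homeodomain factor of the eye field and ventral hypothalamus, at 227 CPM against 43.2 CPM in Frzb-negative cells of the control library and 292 against 91.0 CPM in the dHet library. Aldoc, a glycolytic enzyme of glia, stood at 2658 CPM against 648 CPM in the control and at 2163 against 843 CPM in the dHet library. Grin3a, an NMDA receptor subunit, stood at 89.3 against 16.8 CPM and at 105 against 18.2 CPM. Wfikkn2, a secreted inhibitor of growth and differentiation factors, stood at 54.5 against 7.37 CPM and at 76.0 against 14.8 CPM. Lgr6, a receptor for R-spondins, was also higher with Frzb in both libraries (log2 ratios 1.25 and 1.78). In Scn7a and Cldn10 tanycytes Six6 (283 and 236 CPM) and Aldoc (2873 and 2894 CPM) were also high. Grin3a, Wfikkn2 and Lgr6 were lower there than in Frzb-positive Rax tanycytes. Other genes were higher in Frzb-negative cells. Tnfrsf19, a receptor of the tumour necrosis factor family found on neural progenitors, stood at 1.51 CPM with Frzb and 96.9 CPM without it in the control, and at 6.16 and 159 CPM in the dHet library. Pou3f2, a POU factor of neural progenitors, stood at 16.7 and 119 CPM and at 10.3 and 100.1 CPM. Stra6, the receptor that takes up retinol, stood at 6.06 and 50.5 CPM and at 4.11 and 63.7 CPM. Astrocyte gate cells held more Pou3f2 than either side of the split, at 291 CPM in the control and 300 CPM in the dHet library. They held less Tnfrsf19 (38.2 and 42.1 CPM) and Stra6 (0.779 and 0 CPM) than Frzb-negative cells. Of these, Tnfrsf19 had 52.7% and 61.0% of its UMIs in 5 cells, so it marks a small part of the Frzb-negative cells. Scg2 and Resp18 also stand at the lower left of the plot of the split, and 5 cells held 99.2% and 96.9% of their control UMIs and 91.5% and 88.8% of their dHet UMIs. Immediate early genes were lower in the dHet library on both sides of the split, with a median log2 ratio of -1.27 (20 of 21 lower) in Frzb-positive and -0.42 (18 of 21 lower) in Frzb-negative cells. Whether these medians differ was not tested.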

How the data were processed

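Single-cell RNA was measured in 1 control and 1 dHet library, each of tdTomato-positive cells of 5 pooled mice. The deposited values are raw UMI counts per gene and cell, which the authors made with Cell Ranger (version 3.0.2, per the file headers) on mm10, per the submitters' processing notes; the annotation and the filter behind the merged table are not given in the sources used here. Tissue was digested with papain at 37 °C and cells negative for Sytox blue were sorted, per the labels' protocols.

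From the merged table of 20210 genes, counts were summed over the Rax tanycytes of each library, scaled to CPM and compared as log2 ratios with 5 CPM added (Python 3.11.15, numpy 2.4.6, scipy 1.17.1). Intervals are 95% exact Poisson, Clopper-Pearson or conditional binomial intervals and cover counting error only. With 1 library per genotype no test was run, and a size of 1.5-fold was used. For shares of cells, each cell was thinned to 4000 UMIs. Totals were 1625373 UMIs in control and 1378371 UMIs in dHet Rax tanycytes. Scrublet (in scanpy 1.11.5, expected rate 4%) called 14 control (0.402%) and 31 dHet (0.787%) cells doublets and no Rax tanycyte, and its control share is too low to count as working. No doublets were removed.

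The genes named were the 6 markers, Irx3, Irx5, the 10 highest and 10 lowest ratios among genes with at least 200 UMIs, the 20 leading genes over other cells, the 10 leading genes over each of 2 other classes, 10 genes on each side of the Frzb split, and members of the gene lists; some genes these rules select are not reported here. The ranked genes left out those of mitochondria, ribosomal proteins and haemoglobins, sex-linked genes, unnamed gene models, and genes whose CPM was below 10% of that in some other class. Members and lists were chosen with earlier results of these data known. The steps were tested on simulated data. Alternatives changed the Rax minimum, the limits, the scaling, the added CPM, the filter, the barcodes and the cells used.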

Additional observations from a re-analysis of the deposited data

Results flagged for a closer look

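Aplp1, a relative of the amyloid precursor protein, had opposite signs in the 2 tanycyte groups. Its log2 ratio of dHet over control was -0.62 in Rax tanycytes and 0.95 in Scn7a and Cldn10 tanycytes. In Rax tanycytes it had 234 UMIs in the control and 127 UMIs in the dHet library, and 5 cells held 56.4% and 37.8% of these. The difference between the groups was not tested.

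Barcodes of the filtered matrices that are not in the merged table also held cells that met the rule. There were 5 of 339 such barcodes (1.47%, exact 95% interval 0.481 to 3.41) in the dHet library and 2 of 215 (0.930%, 0.113 to 3.32) in the control library, and the intervals overlap. In 2 barcodes of each library the mitochondrial share was over 20%, and the other 3 dHet barcodes held 37478, 90952 and 99496 UMIs, more than any Rax tanycyte in the merged table.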

How the results depend on the processing

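There were 16 alternative settings, 13 planned and 3 chosen after seeing the data (leaving out cells rich in Cga or Npy, only Frzb-positive cells and only Frzb-negative cells). The ratio of the shares of Rax tanycytes stayed between 0.624 and 0.737 in 8 settings, and the median log2 ratio of the immediate early genes between -1.27 and -0.25 in 15. Of 27 named genes past 1.5-fold, 23 kept their sign in every setting. Removing doublets took out no Rax tanycyte, and lifting the count filter leaves a gene's own ratio as it was, so neither could turn a sign. The number of genes past the size, 190 higher and 184 lower, was 17 and 25 with a 2-fold size, 43 and 53 with 20 CPM added, and 814 and 564 with no filter on low counts, and 82 genes were higher when the rule was applied to thinned counts. The sign turned for 4 genes. The log2 ratio of Scg2 was 0.69 with at least 2 Rax UMIs, 0.0048 with all barcodes of the filtered matrices, 0.64 without cells rich in Cga or Npy and 0.71 in Frzb-positive cells. The log2 ratio of Resp18 was 0.84, 0.43, 0.77 and 0.45 in the same settings, and 0.055 with limits of 10 CP10K. With all barcodes, which added 5 dHet and 2 control cells, the log2 ratio of Egr1 was 0.24 and the log2 ratio of Igfbp5 was 0.26. Other causes were not tested. No paired analysis was possible because each genotype has 1 library and the labels give no replicate numbers. Depth limits what can be said of Irx3, Irx5, Lepr and Mki67.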
